A study of Mus musculus with 9 samples.

Results

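The genes described here are the ligands and receptors of the epidermal growth factor (EGF) receptor family: the ligand genes Ereg, Areg, Hbegf, Tgfa, Btc and Egf, the receptor genes Egfr, Erbb2 and Erbb3, and Errfi1, whose protein binds and inhibits the active receptors. These 10 of the 32671 genes of the deposited table were taken by symbol, and all 10 passed the filter on low counts. The set was chosen by family membership with earlier results of the same 9 libraries in view, among them the levels of Ereg, so the levels and differences of the 10 genes are given as a description, with no p-value. Counts of their calls in the main fit stand beside the share of all genes called. For these 10 genes, the one test given with p-values is that of the share of transcripts within a gene. Other genes of the pathway are given with adjusted p-values. Whole lungs of wild-type C57BL/6 mice were sampled at day 21, and poly(A) RNA was sequenced. Control mice were given saline, and the bleomycin group was challenged with that DNA-breaking drug, which is used to produce lung fibrosis. The third group, called LNP here, also received bleomycin and was then treated with an inhaled lipid nanoparticle, mCas9/gSting@DOPS, named for Cas9 and a guide to Sting, the gene of an innate immune adaptor. Each group had 3 libraries. The comparisons ask how expression differed after bleomycin, and how it differed between particle-treated and untreated bleomycin lungs. Lungs given an empty particle were not analysed here, and what the guide does and what its carrier does cannot be told apart. The labels do not say that the 3 libraries of a group are 3 animals, so p-values measure only the spread between these libraries.

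EGF family ligands are made as proteins anchored in the cell membrane, and proteases of the ADAM family cut them loose. Areg, Tgfa, Egf and Epgn bind the EGF receptor, Hbegf, Btc and Ereg bind it and ERBB4, and neuregulins bind ERBB3 and ERBB4; ERBB2 has no known ligand and works as the partner of the others. Bound receptors pair, phosphorylate each other and signal through RAS and the kinase ERK, which switches on genes such as Dusp6 and the Sprouty genes that in turn damp the pathway. In the lung this family is known for its part in airway and alveolar epithelial growth and repair.

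Total gene counts ran from 56047830 to 69404903 per library. Levels are given as CPM (gene counts relative to the library total, per 1e+06, with library sizes scaled by TMM), and differences as log2 fold changes with their standard errors (SE) from edgeR's fit of all 9 libraries. Markers of alveolar type 2 cells (Sftpc, Sftpb, Sftpa1, Lamp3 and Abca3) summed to 21943 to 29491 CPM in control. Their sums were 7818 to 9102 CPM after bleomycin and 6648 to 20316 CPM in LNP lungs. Most of each sum was Sftpc, with means of 16861, 4869 and 9219 CPM in control, bleomycin and LNP lungs. Lamp3 was far lower, at 27.3 CPM in LNP replicate 3. LNP replicate 3 stood apart. Its 6 skeletal muscle markers summed to 7364 CPM against 5.50 to 50.9 CPM in the other 8 libraries, and its 6 squamous epithelium markers to 1773 CPM against 1.52 to 33.0 CPM. Sting1, the gene named by the guide, stood at 18.4 to 23.9 CPM in control, at 40.5 to 53.8 CPM after bleomycin and at 44.3 to 62.0 CPM in LNP lungs. In whole tissue, fewer cells of a type and less RNA per cell cannot be told apart, and the source cell of a transcript is not seen.

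After bleomycin, 3 ligand genes stood far above control: Ereg, Areg and Hbegf. Egfr and Errfi1 were higher as well, Erbb3 was lower, Tgfa was level, and Btc and Egf overlapped control. Erbb2 was lower too, without overlap, but was not called. In LNP lungs Ereg, Hbegf, Errfi1 and Tgfa lay below every bleomycin library, and Erbb2 lay above all of them. Against control, Ereg, Areg and Hbegf lay above every library in LNP lungs, and Tgfa and Erbb3 lay below every one. The share of all genes without overlap between groups was not counted. At an adjusted p under 0.05 in edgeR's quasi-likelihood test over 20794 genes, 5 of the 10 genes were called higher after bleomycin and 1 lower, where 15.2% of all genes were called higher and 18.5% lower. For LNP against bleomycin 0 were called higher and 2 lower, where the shares of all genes were 4.28% and 1.87%. For LNP against control 3 were called higher and 1 lower, where the shares of all genes were 4.95% and 3.08%. Since these contrasts were known when the genes were chosen, nothing is read from the counts. The median log2 fold change of the 10 genes was 0.38, -0.66 and 0.04 in the 3 comparisons in that order, and that of all genes tested was -0.05, 0.04 and -0.0028.

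**Figure D1:**
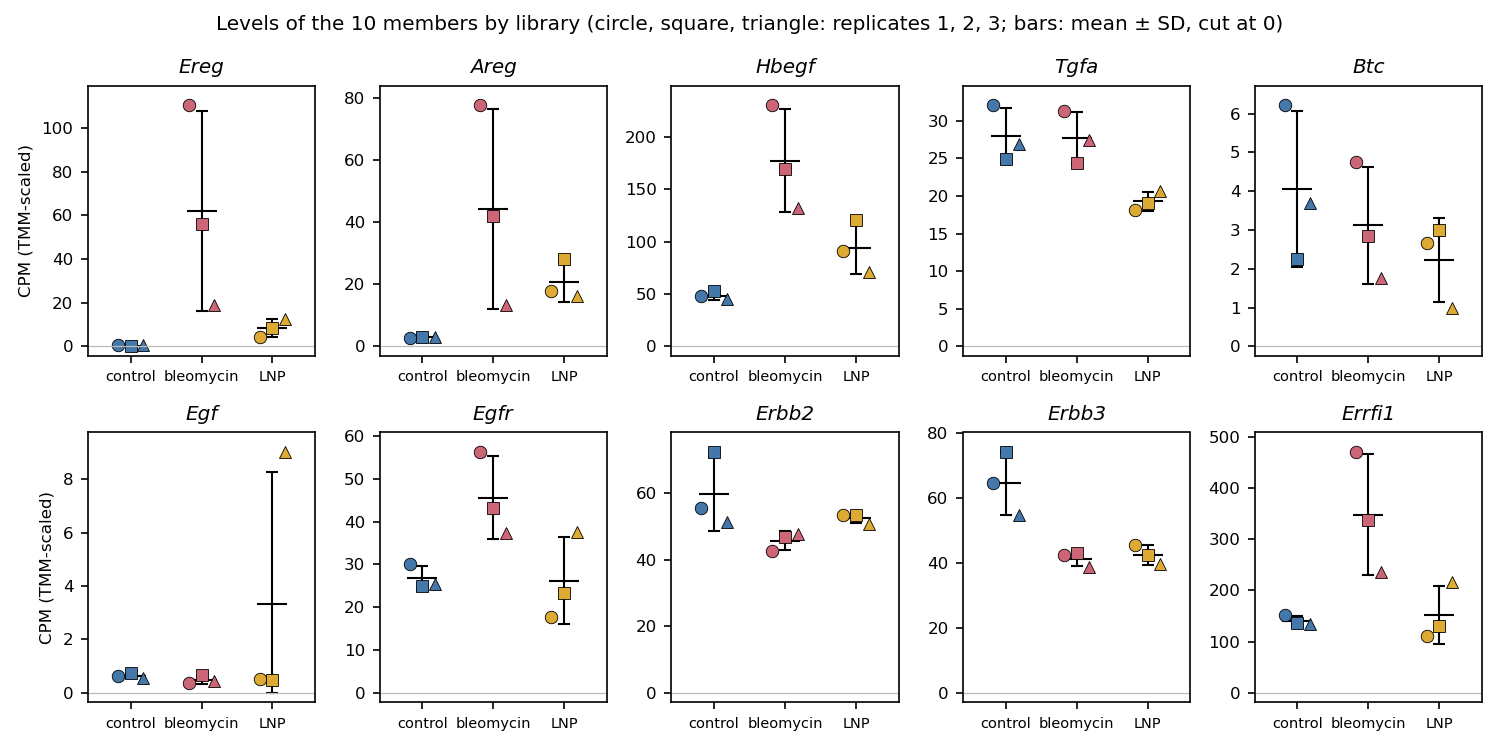
Level of each of the 10 genes in CPM, on linear axes, in 3 control, 3 bleomycin and 3 LNP libraries. Points are libraries and bars are group means ± SD, drawn no lower than 0. The bleomycin libraries of Ereg run from 19.1 to 110.3 CPM, all above the 3 LNP libraries.

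**Figure D2:**
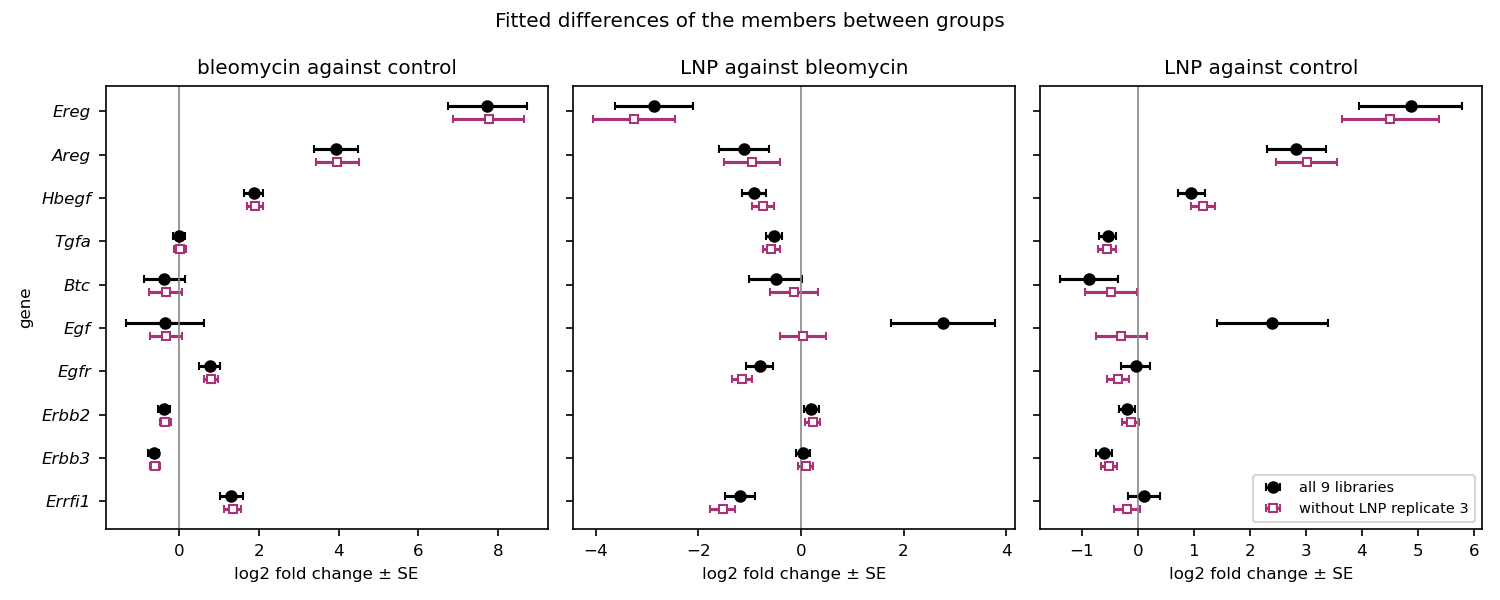
Log2 fold change of each of the 10 genes in the 3 comparisons, with bars of 1 SE, from the fit of all 9 libraries (filled circles) and from the fit without LNP replicate 3 (open squares). The marks for Egf part in the comparisons with LNP, at 2.76 with and 0.04 without that library against bleomycin. For bleomycin against control Ereg is farthest to the right at 7.74 and Erbb3 farthest to the left at -0.64.

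Ereg encodes epiregulin, a ligand with low resting expression in many tissues. Its transcripts were at 0.38, 0 and 0.49 CPM in control replicates 1, 2 and 3, where a count of 0 in replicate 2 allows up to 0.0454 CPM at a floor of 3 counts, a limit that covers counting error only. In bleomycin replicates 1, 2 and 3 Ereg stood at 110.3, 56.2 and 19.1 CPM, and in LNP replicates 1, 2 and 3 at 4.46, 8.45 and 12.6 CPM. The 3 groups did not overlap, and every LNP library lay between the control and the bleomycin libraries. The log2 fold change was 7.74 ± 1.00 (SE, n = 3 per group) for bleomycin against control, -2.86 ± 0.77 for LNP against bleomycin, and 4.87 ± 0.91 for LNP relative to control. Because the control level rests on 23, 0 and 34 counts, both comparisons with control depend on the scale: over 18 alternative settings the first ran from 3.46 to 8.38 and the last from 1.43 to 5.52. The difference of LNP against bleomycin was not called as reported, and was called in 5 of the 18 alternatives. An antisense gene model, Gm19610, overlaps the first 152 bases of the Ereg span but held at most 54 counts in a library, against 6735 for Ereg.

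Areg encodes amphiregulin, an EGF receptor ligand made by injured epithelium and by several immune cells. It stood at 2.66, 3.06 and 2.96 CPM in control lungs, which differed little among themselves. In bleomycin replicates 1, 2 and 3 it stood at 77.8, 42.1 and 13.4 CPM, and in LNP replicates at 17.7, 28.0 and 16.2 CPM. Both bleomycin-exposed groups lay above control without overlap, whereas LNP and bleomycin overlapped through bleomycin replicate 3. The log2 fold change was 3.94 ± 0.55 for bleomycin against control, -1.11 ± 0.49 for LNP against bleomycin, and 2.83 ± 0.53 for LNP relative to control.

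Ereg and Areg are neighbours. In the deposited coordinates Ereg lies on the plus strand of chromosome 5 at 91222481 to 91241505 and Areg on the same strand at 91287458 to 91296291, 45952 bases further on. Btc, another ligand gene, lies 208828 bases beyond Areg on the minus strand, at 91505120 to 91550853, and Epgn lies before Ereg at 91175323 to 91183074. No source used here names the genome build of these coordinates. The 4 genes did not move together, since Epgn held at most 0.341 CPM in any library and Btc did not separate the groups.

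Promoter windows in RefSeq's GRCm38.p6, from 250 bases before to 50 after an annotated start, were used for 7 of the 10 genes. No window was found for Ereg or Erbb3, and Hbegf was left out before the search. The 150 bases before the start are shown for Areg and Errfi1, which hold the same pair of motifs, and for Btc and Tgfa, which hold neither. Capitals mark the cAMP response element (CRE) TGACGTCA and the TATA box TATAAA, all sequences run 5′ to 3′ on the gene's strand, and lower case marks the rest. The windows are chr5:91139449-91139598 on the plus strand for Areg, chr4:150854920-150855069 on the plus strand for Errfi1, chr5:91402995-91403144 on the minus strand for Btc and chr6:86195072-86195221 on the plus strand for Tgfa.
Areg: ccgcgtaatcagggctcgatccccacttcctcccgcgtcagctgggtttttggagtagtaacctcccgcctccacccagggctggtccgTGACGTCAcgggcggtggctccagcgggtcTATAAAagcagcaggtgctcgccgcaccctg
Errfi1: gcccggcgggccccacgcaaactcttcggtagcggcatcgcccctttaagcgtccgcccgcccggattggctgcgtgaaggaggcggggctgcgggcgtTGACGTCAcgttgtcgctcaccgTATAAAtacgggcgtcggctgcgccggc
Btc: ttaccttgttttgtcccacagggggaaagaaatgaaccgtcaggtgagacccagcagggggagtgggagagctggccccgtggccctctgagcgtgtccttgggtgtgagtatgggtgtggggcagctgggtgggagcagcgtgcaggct
Tgfa: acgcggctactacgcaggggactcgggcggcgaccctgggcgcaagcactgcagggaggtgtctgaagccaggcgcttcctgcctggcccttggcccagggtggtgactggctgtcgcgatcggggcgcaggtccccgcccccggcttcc

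In the Areg window the CRE begins at position -61 and the TATA box at position -31, counted from the annotated start. In the Errfi1 window they begin at -51 and -28. The CRE letters, searched on both strands, were in 1.79% of all 32851 RefSeq windows of this length, and the TATA letters, searched on the gene's strand, in 8.32%. Both together were in 36 windows, or 0.11%. The AP-1 motif TGANTCA (7.81% of windows) was in none of the members' windows searched here, the TEAD motif GGAATG (14.7%) was in the Erbb2 window and in a second Errfi1 window, and the GC box GGGCGG (35.7%) was in the windows of Areg, Errfi1, Tgfa and Egfr. Neither the CRE nor the TATA letters were in that second Errfi1 window or in the windows of Egfr, Erbb2 and Egf. A match is a string of letters, not a tested binding site, and the deposited data hold no binding measurement.

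Hbegf encodes heparin-binding EGF-like growth factor. Control replicates 1, 2 and 3 stood at 47.7, 53.0 and 44.7 CPM, those of bleomycin at 230, 169 and 132 CPM and those of LNP at 91.1, 121 and 70.7 CPM. As with Ereg, no group overlapped another and the LNP libraries lay between the other two groups. Log2 fold changes were 1.87 ± 0.24 for bleomycin against control, -0.91 ± 0.23 for LNP against bleomycin, and 0.96 ± 0.23 for LNP relative to control. Over 18 alternative settings the call for LNP against bleomycin was lost in 14 and that for LNP against control in 8.

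Within the bleomycin group the same library led. Replicate 1 was highest and replicate 3 lowest for 6 of the 10 genes, with a ratio of highest to lowest of 5.79 for Ereg, 5.82 for Areg, 2.69 for Btc, 2.00 for Errfi1, 1.74 for Hbegf and 1.51 for Egfr. The summed markers of transitional alveolar epithelium (Krt8, Krt19, Cldn4, Sfn and Lgals3), a state of type 2 cells seen during repair, stood in the same order, at 3205, 2628 and 2232 CPM in replicates 1, 2 and 3. That order was common: it held for 8 of 15 marker lists, among them those of type 1 and type 2 alveolar cells and recruited macrophages, and for 29.1% of all genes tested. Among the 3159 genes called higher after bleomycin it held for 57.2%. The reverse order held for 6 lists, among them neutrophils at 252, 441 and 584 CPM. Across groups the transitional markers summed to 653 to 975 CPM in control and 1277 to 1882 CPM in LNP lungs, with 5 of 5 called higher after bleomycin. Recruited macrophage markers (Spp1, Trem2, Gpnmb, C1qa and Arg1) summed to 141 to 163, 5464 to 6275 and 1757 to 3845 CPM in control, bleomycin and LNP lungs, with 5 of 5 called higher after bleomycin. Most of that sum was Spp1; without it the sums were 63.2 to 90.4, 926 to 983 and 565 to 1315 CPM, so bleomycin and LNP lungs overlapped. None of these 10 markers was at 0 in any library. Markers of innate lymphoid 2 cells, a known source of Areg, stood low and were not higher after bleomycin, with sums of 13.6 to 15.0, 6.72 to 7.21 and 6.36 to 16.8 CPM over 4 genes, of which 0 were called higher and 1 lower; Il5 among them was at 0 or near it in all libraries. The part of any cell type in the ligand levels was not tested.

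Tgfa, which encodes transforming growth factor alpha, behaved unlike the 3 ligands above. It stood at 32.1, 24.9 and 26.9 CPM in control and 31.4, 24.4 and 27.4 CPM in bleomycin lungs, a log2 fold change of -0.01 ± 0.15 with overlapping groups. In LNP lungs it stood at 18.1, 19.1 and 20.7 CPM, below every other library. The log2 fold change of LNP was -0.52 ± 0.15 against bleomycin and -0.54 ± 0.15 against control. Neither difference was called as reported, and each was called in 2 of 18 alternatives.

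Btc encodes betacellulin and was low throughout. Its level was 6.22, 2.26 and 3.69 CPM in control lungs, 4.75, 2.86 and 1.77 CPM in bleomycin lungs and 2.67, 3.01 and 0.99 CPM in LNP lungs. All 3 groups overlapped, and the log2 fold change was -0.38 ± 0.52 for bleomycin against control, -0.49 ± 0.52 for LNP against bleomycin, and -0.86 ± 0.52 for LNP relative to control.

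Egf, the founding ligand of the family, is made mainly in kidney and salivary gland and was near the floor in lung. The other 8 libraries held 0.38 to 0.73 CPM, whereas LNP replicate 3 held 9.02 CPM from 518 counts, of which 506 were assigned to the transcript Egf-201. The log2 fold change of LNP against bleomycin was 2.76 ± 1.01 with that library and 0.04 ± 0.45 without it. Against control it was 2.40 ± 0.99 with it and -0.29 ± 0.45 without it. The same library held the highest level of all 6 skeletal muscle markers, of all 6 squamous epithelium markers and of 4 of 5 basal epithelium markers, and Myh4 and Sprr3 were at 0 in every control and bleomycin library. Whether Egf transcripts came with those tissues was not tested.

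**Figure D3:**
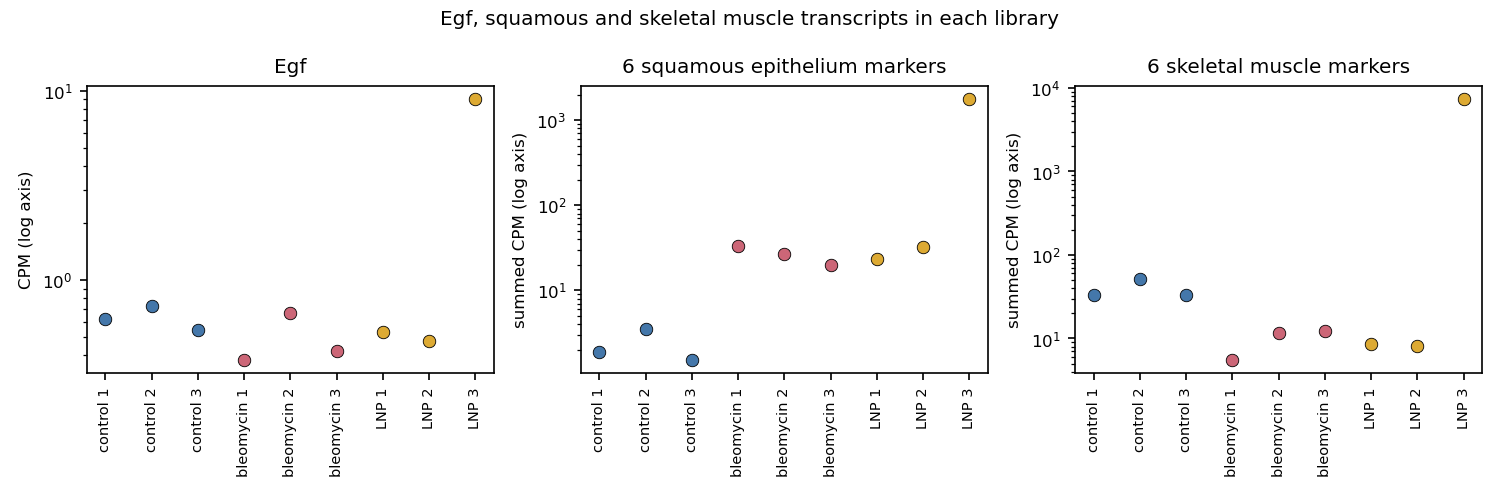
Egf in CPM, and summed CPM of 6 squamous epithelium and 6 skeletal muscle markers, in each of the 9 libraries, each on a log axis. LNP replicate 3 stands alone at the top of all 3 panels, with 9.02 CPM of Egf, 1773 CPM of squamous markers and 7364 CPM of muscle markers.

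To compare ligands with one another, the authors' FPKM values were used, which allow for transcript length. In control lungs Hbegf led at 9.20 ± 0.41 FPKM (mean ± SD, n = 3), followed by Tgfa at 3.97 ± 0.64, Areg at 2.19 ± 0.13 and Btc at 0.83 ± 0.43, with no overlap between neighbours. Ereg at 0.064 and Egf at 0.050 FPKM closed the order and overlapped. In bleomycin lungs Hbegf (32.0 ± 7.39), Areg (31.4 ± 21.7) and Ereg (12.9 ± 9.06) came first, each overlapping the next, and all 3 stood above Tgfa at 3.74 ± 0.37. In LNP lungs Hbegf (18.6 ± 5.21) and Areg (16.2 ± 5.25) overlapped and stood above Tgfa (2.83 ± 0.16), which overlapped Ereg (1.96 ± 0.92). Thus Tgfa was the second ligand by level in control lungs and the fourth in bleomycin lungs.

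Summed over the 6 ligand genes, FPKM came to 17.4, 15.6 and 15.9 for control replicates 1, 2 and 3, to 120, 77.8 and 43.6 for those of bleomycin and to 36.3, 51.8 and 33.0 for those of LNP. Bleomycin and LNP lungs both lay above control, and they overlapped each other. Areg made up 13.5% of the control sum, 35.6% of the bleomycin sum and 39.7% of the LNP sum, as means over libraries. The share of Tgfa went from 24.3% in control to 5.49% in bleomycin and 7.29% in LNP lungs, and that of Ereg was 0.387%, 14.6% and 5.11%. Hbegf made up 56.6%, 43.5% and 45.9%. The sum counts RNA only and gives each ligand the same weight.

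**Figure D4:**
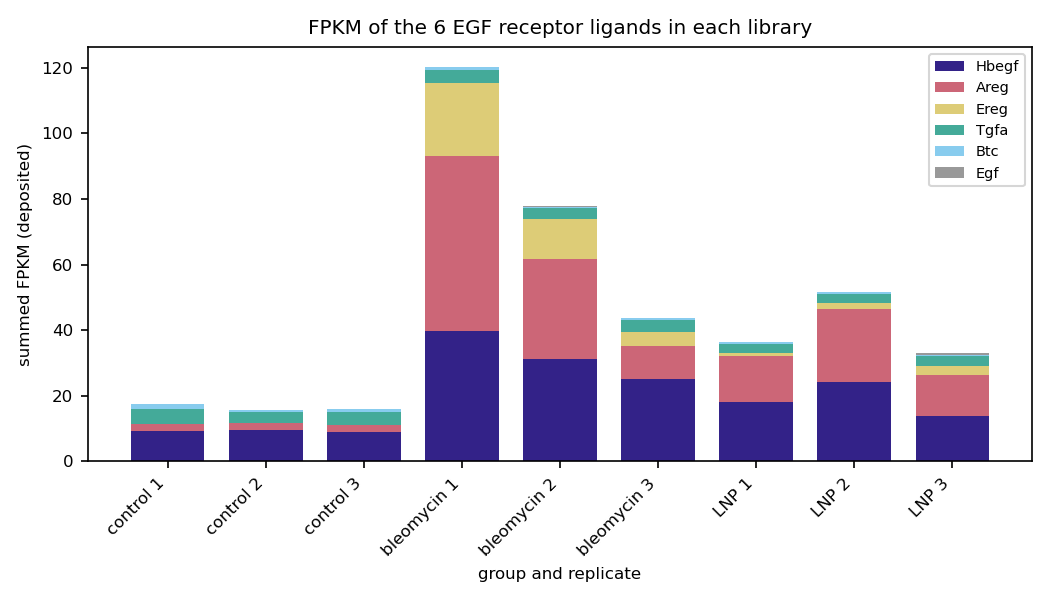
Summed FPKM of the 6 EGF receptor ligand genes in each library, with each stacked bar divided by gene. Control libraries sum to 15.6 to 17.4 FPKM, mostly Hbegf and Tgfa, and bleomycin libraries to 43.6 to 120 FPKM, mostly Hbegf, Areg and Ereg.

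Among the receptors, Egfr, which binds all 6 ligands, stood at 30.1, 25.0 and 25.4 CPM in control and 56.3, 43.3 and 37.3 CPM in bleomycin lungs, without overlap. LNP replicates 1, 2 and 3 held 17.8, 23.3 and 37.5 CPM, so replicates 1 and 2 lay below every control library and replicate 3 lay among the bleomycin libraries. Log2 fold changes of Egfr were 0.77 ± 0.26 for bleomycin against control, a call lost in 12 of 18 alternatives, -0.80 ± 0.26 for LNP against bleomycin, and -0.03 ± 0.26 for LNP relative to control. Without LNP replicate 3 the LNP values were -1.15 ± 0.20 against bleomycin and -0.35 ± 0.20 against control.

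Erbb2, the partner receptor, stood at 55.6, 72.4 and 51.2 CPM in control lungs, 42.6, 46.8 and 47.8 CPM in bleomycin lungs and 53.4, 53.3 and 50.8 CPM in LNP lungs. The bleomycin libraries were the lowest 3 of the 9, with a log2 fold change of -0.39 ± 0.14 against control. That difference was not called as reported, and was called in 5 of 18 alternatives. LNP lungs lay above the bleomycin lungs, by 0.20 ± 0.14, and overlapped control, at -0.19 ± 0.14. Erbb2 shares 9 bases with Mien1 on the other strand, so a small part of its counts may be assigned in error.

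Erbb3, whose protein binds neuregulins and signals through its partners because its own kinase is weak, stood at 64.6, 74.4 and 55.0 CPM in control. In bleomycin lungs it stood at 42.5, 43.0 and 38.7 CPM, and in LNP lungs at 45.6, 42.4 and 39.6 CPM. Both bleomycin-exposed groups were below control without overlap, by -0.64 ± 0.14 and -0.60 ± 0.14 on the log2 scale, and they overlapped each other at 0.04 ± 0.14. Among the receptors Erbb3 and Egfr therefore differed in direction after bleomycin, and Erbb3 was the one whose LNP libraries lay with the bleomycin libraries. Markers of alveolar type 2 cells were lower in bleomycin lungs too (4 of 5 called). Unlike Erbb3, their sum in LNP replicates 1 and 2, at 20316 and 16589 CPM, lay above the 7818 to 9102 CPM of bleomycin lungs. In LNP replicate 3 it was 6648 CPM, and for LNP against bleomycin 0 of the 5 were called higher and 0 lower. Of 5 general epithelial markers, Krt18 was called higher after bleomycin, with a mean of 156 CPM in control and 487 CPM in bleomycin lungs, and Cldn3 lower, with 195 and 141 CPM. Cdh1 (427 and 335 CPM), Epcam (71.4 and 63.5 CPM) and Cldn18 (691 and 672 CPM) were not called and had lower means after bleomycin. The part of epithelial cells in the Erbb3 levels was not tested.

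By FPKM, Erbb2 (10.5 ± 1.49) and Erbb3 (9.85 ± 1.10) overlapped in control lungs and stood above Egfr (2.18 ± 0.29). In bleomycin lungs the order was Erbb2 at 7.72, Erbb3 at 6.04 and Egfr at 3.51 FPKM, with no overlap. In LNP lungs it was 9.61, 6.74 and 2.20 FPKM, again with no overlap. The order of the means was the same in each group, and the distance from Egfr to the others was smallest in bleomycin lungs. Erbb4, the remaining receptor, was at the floor, with means of 0.285 CPM in control, 0.0823 CPM after bleomycin and 0.161 CPM in LNP lungs.

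Errfi1 encodes MIG6, which docks on the EGF receptor kinase, blocks it and steers the receptor to degradation; it is itself switched on by receptor signalling. In control it stood at 152, 136 and 135 CPM, in bleomycin at 471, 339 and 235 CPM, and in LNP lungs at 111, 130 and 217 CPM. All bleomycin libraries were above all others, and LNP replicates 1 and 2 lay below every control library while replicate 3 lay above. On the log2 scale the difference was 1.31 ± 0.29 for bleomycin against control, -1.19 ± 0.29 for LNP against bleomycin, and 0.12 ± 0.29 for LNP relative to control. Without LNP replicate 3 the second was -1.53 ± 0.25 and the third -0.19 ± 0.23. The call for LNP against bleomycin was lost in 11 of 18 alternatives.

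The share of the leading transcript was tested for 6 of the 10 genes; with 3 libraries against 3 the design cannot give a p under 0.1, so no difference could have passed 0.05. Egf, with 6 transcripts and few counts, was not tested. Ereg, Areg and Erbb3 have 1 transcript each in the deposited table. For Hbegf, Tgfa, Egfr, Erbb2 and Errfi1 the leading transcript held at least 80.5% of the gene's counts in every library. Btc was the exception: in control replicate 2 Btc-201 held 11.4% of 149 counts, whereas in the other 8 libraries it held 84.4% to 100%. Over 18 exact two-sided permutation tests of the leading share (6 genes in 3 comparisons, 3 against 3 libraries), the smallest p was 0.1. It was reached for Tgfa, whose leading share was 99.2% in bleomycin and 100% in both other groups (Benjamini-Hochberg adjusted p = 0.9).

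The other genes of the pathway were read from 5 lists of 59 genes, of which 58 were tested. After bleomycin 23 of the 58 rose and 6 fell in edgeR's quasi-likelihood test, with a median log2 fold change of 0.28 against -0.05 over all genes. Of all genes, 15.2% rose and 18.5% fell. Of the 15 genes switched on by ERK 10 rose, and of the 10 ligand-releasing proteases and their helpers 6 rose. The lists were compiled with earlier results known and stand as counts.

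Among the other ligands, the neuregulin gene Nrg1, whose protein binds ERBB3 and ERBB4, rose from 5.81 ± 0.71 CPM in control to 36.9 ± 5.99 CPM in bleomycin lungs (log2 fold change 2.67 ± 0.23, adjusted p = 0.000122, n = 3 per group). Each bleomycin library, at 43.3, 35.9 and 31.5 CPM, lay above each control library. Nrg2, a second neuregulin gene, fell from 7.32 to 2.64 CPM (-1.47 ± 0.41, adjusted p = 0.0213), a call that was lost without control replicate 1 or without control replicate 2. So while the ERBB3 receptor transcript was lower after bleomycin, the transcript of one of its ligands was higher.

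Among the shedding enzymes, Adam12, a metalloprotease known from mesenchymal cells in development and repair, rose from 2.43 to 41.1 CPM (4.08 ± 0.44, adjusted p = 0.00028). The related metalloprotease genes rose less steeply: Adam15 from 205 to 435 CPM (1.09 ± 0.14, adjusted p = 0.000553), Adam9 from 107 to 258 CPM (1.27 ± 0.17, adjusted p = 0.00066) and Adam8 from 34.4 to 103 CPM (1.59 ± 0.33, adjusted p = 0.00546). Each of these 4 calls was kept in all 18 alternative settings. Adam17, the main sheddase of Areg, Ereg, Hbegf and Tgfa and singled out here after its values were seen, did not pass, with 54.0 CPM in control against 50.8 CPM in bleomycin lungs (-0.09 ± 0.21, adjusted p = 0.773).

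Of the 10 genes that inhibit or remove the receptors, 1 rose and 1 fell. Ptprj, a receptor phosphatase, rose from 63.3 to 94.8 CPM (0.58 ± 0.13, adjusted p = 0.00903). Lrig1, a membrane protein that promotes receptor degradation, fell from 36.9 to 22.4 CPM (-0.72 ± 0.21, adjusted p = 0.0282); that call was lost in 5 of 18 alternatives, among them the fits without control replicate 2, control replicate 3, bleomycin replicate 2 or bleomycin replicate 3. Of the 18 adaptors and kinases 5 rose and 2 fell. Plcg1, a phospholipase recruited by the active receptor, fell from 175 to 97.6 CPM (-0.84 ± 0.14, adjusted p = 0.00208). The RAS switch genes were higher: Hras rose from 66.4 to 126 CPM (0.93 ± 0.17, adjusted p = 0.00273), Nras by 0.63 ± 0.13 (adjusted p = 0.00486) and the adaptor gene Shc1 by 0.52 ± 0.14 (adjusted p = 0.0181), the last not in fits without control replicate 1 or 3 or bleomycin replicate 1 or 2.

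The 15 output and feedback genes of ERK had a median log2 fold change of 1.21 after bleomycin. Spry4, a Sprouty feedback inhibitor, stood at 24.5, 29.8 and 26.6 CPM in control and 174, 142 and 115 CPM in bleomycin lungs, a rise of 2.42 ± 0.17 (adjusted p = 6.74e-05). Dusp6, the phosphatase that inactivates ERK, rose from 82.3 to 212 CPM (1.37 ± 0.14, adjusted p = 0.000236). The transcription factor genes Etv4, from 0.328 to 19.1 CPM (5.83 ± 0.74, adjusted p = 0.000581), and Myc, from 7.74 to 90.0 CPM (3.54 ± 0.47, adjusted p = 0.000708), rose too. These 4 calls were kept in all 18 alternatives. The 2 genes of the list that fell, named after their values were seen, were Spry1 (-0.45 ± 0.12, adjusted p = 0.0204) and Etv5 (-1.31 ± 0.26, adjusted p = 0.00502); Etv5 is also a factor of alveolar type 2 cells. Of the 23 pathway genes that rose, 19 were highest in bleomycin replicate 1 and lowest in replicate 3, an order shared by 57.2% of all 3159 genes called higher.

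In LNP against bleomycin lungs, 7 of the 58 pathway genes fell and 0 rose, with a median log2 fold change of -0.29 against 0.04 over all genes, of which 1.87% fell and 4.28% rose. At an unadjusted p under 0.05 edgeR gave 20 lower and 2 higher, and DESeq2 called 16 lower and 1 higher. Over all genes DESeq2 called 1081 lower and 1930 higher of 20380. The share of all genes at the unadjusted cut-off was not counted. Of the 7, 5 were ERK output genes. Spry4 fell from 144 CPM to 48.3, 59.3 and 51.6 CPM in LNP replicates 1, 2 and 3 (-1.44 ± 0.17, adjusted p = 0.00271), and it is the one gene of the 7 whose call was kept in all 18 alternatives. Spry2 fell from 37.4 to 20.5 CPM (-0.87 ± 0.17, adjusted p = 0.0211), Dusp6 from 212 to 133 CPM (-0.67 ± 0.14, adjusted p = 0.0248) and Dusp5 from 43.6 to 16.9 CPM (-1.37 ± 0.30, adjusted p = 0.0303). The fifth, named after its values were seen, was Spred1 (-0.92 ± 0.23, adjusted p = 0.0462). Outside that list Nrg1 fell from 36.9 to 16.3 CPM (-1.18 ± 0.22, adjusted p = 0.0189) and Adam9 from 258 to 157 CPM (-0.72 ± 0.16, adjusted p = 0.0349).

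The number that fell depended on single libraries. It was 1, Spry4 alone, in each of the fits without bleomycin replicate 1, bleomycin replicate 2, LNP replicate 1 or LNP replicate 2, and 4 without control replicate 3. It was 21, with 4 rising, without LNP replicate 3, the library with muscle and squamous transcripts. Calls over all genes differed between these fits too. In the fits that gave 1, 18 to 53 of all genes were lower, and 157 were lower without control replicate 3. Of 21373 genes, 2297 were lower and 2987 higher without LNP replicate 3. That library stood nearer to the bleomycin libraries than the other LNP libraries did for several genes: Myc was at 16.8, 22.2 and 61.8 CPM in LNP replicates 1, 2 and 3, and Etv4 at 4.47, 6.69 and 19.7 CPM.

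**Figure D5:**
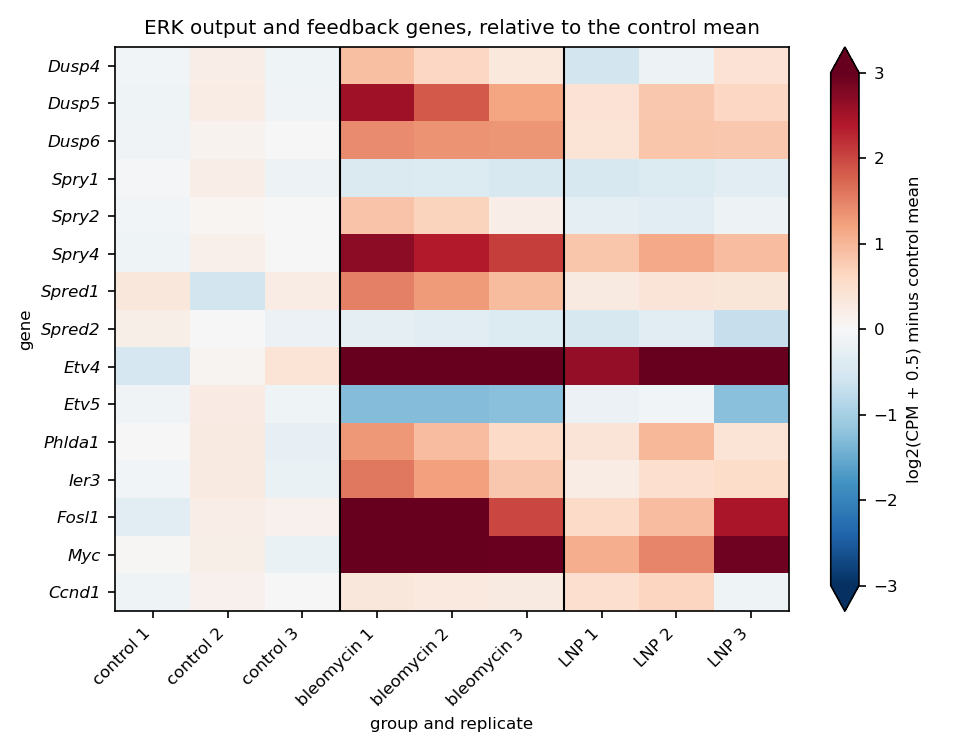
Colour map of the 15 ERK output and feedback genes (rows) in the 9 libraries (columns), coloured by log2(CPM + 0.5) minus the mean of the control libraries; red is higher, blue is lower, and values beyond the ends of the scale take the end colour. Spry4, at 115 to 174 CPM in bleomycin and 48.3 to 59.3 CPM in LNP libraries, is paler in all LNP columns, whereas Etv5 is blue in the bleomycin columns and in LNP replicate 3.

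Against control, 7 of the 58 pathway genes rose in LNP lungs and 0 fell, with a median log2 fold change of 0.06 against -0.0028 over all genes, of which 4.95% rose and 3.08% fell. At an unadjusted p under 0.05 there were 13 higher and 5 lower, and DESeq2 called 9 higher and 2 lower. Over all genes DESeq2 called 1816 higher and 1122 lower of 22274. No share of all genes was counted at the unadjusted cut-off. Nrg1 rose from 5.81 to 16.3 CPM (1.48 ± 0.23, adjusted p = 0.00473). The shedding enzyme genes that rose were Adam12, from 2.43 to 14.5 CPM (2.58 ± 0.41, adjusted p = 0.00562), and Adam15, from 205 to 324 CPM (0.66 ± 0.14, adjusted p = 0.0173). Of the ERK output genes, Etv4 rose by 4.94 ± 0.72 (adjusted p = 0.00405), Spry4 by 0.98 ± 0.17 (adjusted p = 0.00795), Dusp6 by 0.69 ± 0.14 (adjusted p = 0.0147) and Myc by 2.12 ± 0.45 (adjusted p = 0.0193). The calls of Spry4 and Etv4 were kept in all 18 alternatives. Those of Adam15, Dusp6 and Myc were lost without control replicate 1 and without control replicate 3, that of Dusp6 also without LNP replicate 2 and that of Myc also without control replicate 2. The Myc call was lost with the replicate number as a block as well. By limma with no filter the calls of Myc, Nrg1 and Adam12 were lost. All 7 are among the genes that rose after bleomycin; the comparisons share the control libraries, so these are not independent.

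Genes with level profiles closest to those of Ereg and Areg were named by the root mean square difference of log2(CPM + 0.5) values, each centred on its own mean, over the 9 libraries. For Ereg these were Tnc (0.63), a matrix protein of wound repair, Timp1 (0.70), an inhibitor of matrix proteases, and Mt2 (0.72), a metal-binding stress protein. For Areg they were Ccl7 (0.32), a monocyte-attracting chemokine, Has2 (0.36), a hyaluronan synthase, and Lif (0.43), a cytokine of the interleukin 6 family. Ccl7 stood at 39.0, 20.0 and 9.05 CPM in bleomycin replicates 1, 2 and 3 and 6.33, 11.1 and 6.46 CPM in LNP replicates; replicate 1 led the bleomycin group and replicate 2 the LNP group, as for Areg. The measure describes 9 libraries that share the same group differences and carries no test.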

How the data were processed

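Gene counts, transcript counts and FPKM values of 9 whole-lung libraries, 3 per group, were used as deposited. The whole-number counts and the FPKM values, which are scaled by transcript length and library size, were made by the authors and are named so per the file headers; fastp, StringTie and edgeR are named in the submitters' processing notes, with no versions. For the aligner, the genome build and the use of strand in counting the sources used here give nothing, which leaves overlapping genes uncertain.

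Groups came from the labels. Gene counts were fitted with edgeR 4.0.16 in R 4.3.3 (quasi-likelihood F test, all 9 libraries in 1 fit, TMM scaling). The filterByExpr filter passed 20794 genes and removed 11877. Calls required an adjusted p (Benjamini-Hochberg, over all genes tested) under 0.05. CPM use TMM-scaled library sizes, and the SE is the absolute log2 fold change divided by the square root of F. The members, the 5 pathway lists and the marker lists were chosen with earlier results of these data known. Named in the text are all members, per list and comparison up to 4 called genes with the smallest p, and the 3 genes closest to Ereg and to Areg, passing over unnamed models and pseudogenes. FPKM served to compare levels between genes. The fits were repeated with DESeq2 1.42.0, with scaling by relative log expression, without the count filter, on just the 2 groups of a comparison, with the replicate number as a block, with limma 3.58.1 on log2(FPKM + 1) and log2(FPKM + 0.1) with a minimum mean FPKM of 0.5, the same with no filter, and leaving out each library in turn; scaling by library totals was added after seeing the data. Scripts were tested on simulated counts. Tables and plots were made in Python 3.11.15 with pandas 2.3.3 and matplotlib 3.10.9.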

Additional observations from a re-analysis of the deposited data

How the results depend on the processing

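No called difference of a member or of a named pathway gene changed direction under any of the alternatives run. Some differences that were not called did change sign in at least 1 setting: those of Tgfa and Btc for bleomycin against control, Erbb3 for LNP against bleomycin, and Egfr and Errfi1 for LNP against control. That of Egf for LNP against control, 2.40 as reported, was -0.29 without LNP replicate 3. Of the members' log2 fold changes, 501 of 534 moved by less than 1 SE and 33 by more. Of 972 values of named pathway genes 69 lost and 24 gained a call. The counts depended on the setting mostly for LNP against bleomycin. Pathway genes called lower there, 7 as reported, were 16 (with 1 higher) by DESeq2, 3 in a fit of only those groups, 2 by limma with no filter and 1 with the replicate block. Of all genes, 389 of 20794 were called lower as reported. The other settings gave 1081 of 20380, 100 of 19875, 136 of 32671 and 86 of 20794, in that order. Members called lower there, 2 as reported, were 4 by DESeq2, 1 with library totals and 0 with no count filter, in the fit of only those groups, with the replicate block and by limma with no filter. All genes called lower were 253 of 20794 with library totals and 197 of 32671 with no count filter. For LNP against control, DESeq2 called 2 pathway genes and 2 members lower, the fit of only those groups 0 members lower, and limma with no filter 4 pathway genes and 1 member higher. Of all genes, DESeq2 called 1122 of 22274 lower, the fit of only those groups 331 of 19900 lower, and limma with no filter 866 of 32671 higher. For bleomycin against control, 2 members (Erbb2 and Erbb3) were lower with library totals and in each of the 3 limma fits. Of all genes, 4169 of 20794 were lower with library totals. Lower by limma were 3634 of 15478 on log2(FPKM + 1), 3639 of 15478 on log2(FPKM + 0.1) and 3604 of 32671 with no filter. Egfr was not called higher in those settings, nor with no count filter, with the replicate block or without any 1 of control replicates 1, 2 and 3, bleomycin replicates 1 and 2 and LNP replicate 2. The causes were not tested.

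Leaving out 1 library at a time gave, for bleomycin against control, 16 to 28 pathway genes higher and 3 to 8 lower, and 4 to 5 members higher and 1 to 2 lower. Of the 21373 to 21542 genes tested in these fits, 1951 to 4374 were called higher and 2412 to 4728 lower. For LNP against bleomycin it gave 0 to 4 pathway genes higher, 1 to 21 lower, and 0 to 5 members lower, the 5 without LNP replicate 3. Of all genes, 84 to 2987 were called higher there and 18 to 2297 lower, with the most calls without LNP replicate 3. For LNP against control it gave 4 to 9 pathway genes higher and 0 to 2 lower, and 0 to 3 members higher (0 without control replicate 1, 1 without control replicate 3) and 0 to 1 lower. Of all genes, 491 to 1369 were called higher there and 226 to 963 lower.

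Scaling by library totals, chosen after seeing the data, moved the median of all genes to -0.115, 0.16 and 0.0492 in the 3 comparisons. Deviations from the group means correlated from -0.0652 to 0.0762 between same-numbered libraries. Libraries of different number were not compared, so these values do not settle whether the numbers pair the samples. The replicate block is an alternative only. With 3 libraries a group, and 1 LNP library holding transcripts of other tissues, the spread within groups limits every difference; at these depths a gene below 1 CPM rests on few counts.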

Other observations

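The pair of letter strings found before Areg and Errfi1, a CRE and a TATA box within the same promoter window, was looked for in all RefSeq windows after the members' windows had been read. It was found for 35 genes, of which 26 were tested. After bleomycin 9 of the 26 were called higher and 4 lower by edgeR, with a median log2 fold change of 0.32 against -0.05 over all genes; of all genes 15.2% were called higher and 18.5% lower. Areg and Errfi1, which prompted the search, are counted in. For LNP against bleomycin 0 were called higher and 3 lower (4.28% and 1.87% of all genes), with a median of -0.16. For LNP against control 3 were called higher and 1 lower (4.95% and 3.08% of all genes), with a median of 0.13. The list was made after seeing the data and is given as counts, with no test.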
